A study of Mus musculus with 6 samples.

Results

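The genes described here are 10 members of the BCL2 family, chosen by name and taken with every probe set annotated to them. They comprise 3 survival genes (Mcl1, Bcl2 and Bcl2l1), 2 effector genes (Bax and Bak1) and 5 genes of BH3-only proteins (Bid, Bad, Bcl2l11, Bbc3 and Pmaip1). In all, 29 of the 45101 probe sets on the array read 9 of these genes, 15 of them survival genes, 2 the effector Bak1 and 12 BH3-only genes. Bax had no probe set with its symbol in the annotation used here and is not reported. The arrays were hybridised with RNA of Ba/F3, an interleukin 3 dependent line of mouse pro-B cells, transduced with a retroviral Tet-on construct for NCOR1-LYN. This fusion protein joins parts of the corepressor NCOR1 and of the tyrosine kinase LYN. NCOR1-LYN cultures were given doxycycline to switch the construct on (3 arrays), and control cultures were the same cells without doxycycline (3 arrays). Doxycycline and the fusion cannot be told apart in this design, and cells given the drug without the construct were not analysed here. Whether the line is 1 clone, how long the drug was given and how much interleukin 3 the medium held are not given in the sources used here.

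Proteins of the BCL2 family decide whether the outer mitochondrial membrane stays intact. The effectors BAX and BAK form pores in it, through which cytochrome c leaves and starts the caspases, while MCL1, BCL2 and BCL-XL (the product of Bcl2l1) bind and restrain them. BH3-only proteins report damage or a missing growth signal and act by engaging the survival proteins, the effectors or both. In cells that depend on a cytokine, its loss is known to raise transcription of Bcl2l11, which encodes BIM, through FOXO factors, and the survival genes Mcl1 and Bcl2l1 are known targets of cytokine signalling through STAT factors. Much of the family is also controlled at the level of the protein, by phosphorylation (BAD, BIM), cleavage (BID) or rapid turnover (MCL1, NOXA), which RNA arrays do not read.

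Every array had a trimmed mean signal of 500 (2% of values left out at either end), with medians of 54.8 to 61.9. The arrays of replicate 1 stood apart in either group: the leading principal component (57.95% of the variance) put NCOR1-LYN 1 at −24.9 and control 1 at −37.2, with the other 4 arrays at 12.02 to 18.6. Values are therefore given for each array and each pair of equal replicate number, and results are given with and without replicate 1. The receptor genes for interleukin 3 had clear signals (Csf2rb 12267 to 25885), as did Ptprc (8278 to 10434), Tcf3 (927 to 2202) and Cd79b (403 to 577). Of the B lineage markers Rag1, Rag2, Ebf1, Cd79a and Vpreb1 reached at most a signal of 49.8 on any array, Pax5 125 and Igll1 179. Of the erythroid and megakaryocyte markers Gata1 (2419 to 3925), Klf1 (1893 to 5388) and Itga2b (2173 to 5622) had clear signals, while Pf4 reached at most 44.0 and Hba-a1 38.1. The summed signal of 10 myeloid markers was 2954 to 5509 with NCOR1-LYN and 1685 to 2518 in controls, and that of 9 mast cell and basophil markers was 8142 to 9518 with NCOR1-LYN and 8376 to 15864 in controls. Most of the myeloid sum was Prtn3 (mean 3618 with NCOR1-LYN, 1195 in controls), while the means of S100a8 (18.3 and 89.0) and S100a9 (65.5 and 105) lay the other way. The replicate 1 arrays did not share these directions for Prtn3 (1745.5 with NCOR1-LYN, 1763 in control 1) or for S100a9 (90.6 and 10.3). The mast cell sum joined Fcer1a (mean 3234 with NCOR1-LYN, 568 in controls) with Gata2 (5461 and 9843) and Cma1 (46.2 and 330.2). Their part in the results below was not tested. The labels speak of cultures in triplicate without saying how separate these were, and a p-value thus rests on the spread of these arrays, which may be technical. A signal averages over all cells of a culture, so fewer cells with a transcript and less of it per cell cannot be told apart.

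NCOR1-LYN cultures were set against controls to ask which pathways the fusion affects. Of the members, 8 were bright enough to be tested, and 0 of these passed an adjusted p of 0.05 in limma, where 0.0824% of all genes did. At an unadjusted p of 0.05 it was also 0 of 8, against 4.75% of all genes. With the replicate number as a block 0 members passed as well (0.824% of all genes did), and 3 had an unadjusted p under 0.05 (Mcl1, Bid and Bbc3), against 11.3% of all genes. In the fit of all probe sets 0 of the members' 29 passed without the block (0.00286% of all probe sets) and 0 with it (0.0429%). Arrays were also weighted by how closely each followed its group in the same signals, which is no separate measure of their quality. So weighted, limma called 2 members lower, Bcl2l1 (−0.56, adjusted p = 0.0154) and Bbc3 (−0.60, adjusted p = 0.0362). It called 4.60% of all genes there (2.53% lower). Both replicate 1 arrays stood apart from their group, so this fit is not separate from the one without them below. Of the 8 members 7 had a negative and 1 a positive log2 fold change, with a median of −0.26, against a median of −0.01 over all genes, 5148 positive and 5768 negative. Among the 29 probe sets, 9 lay lower with NCOR1-LYN in all 3 pairs (15.4% of all probe sets did), and 3 lay higher in all 3 (15.5% of all probe sets did). The 9 read only Mcl1 (6), Bid (2) and Bbc3 (1), and the 3 read Bcl2 (2) and Bak1 (1), so they are not separate observations. By gene 3 of the 8 tested were lower in all pairs (18.9% of all genes were) and 1 was higher (15.9% of all genes were). The groups did not overlap in 6 of the 29 (10.4% of all probe sets), 5 of them lower with NCOR1-LYN (5.13%) and 1 higher (5.27%). The 5 lower ones all read Mcl1, so they count 1 RNA and are not separate observations.

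**Figure D1:**
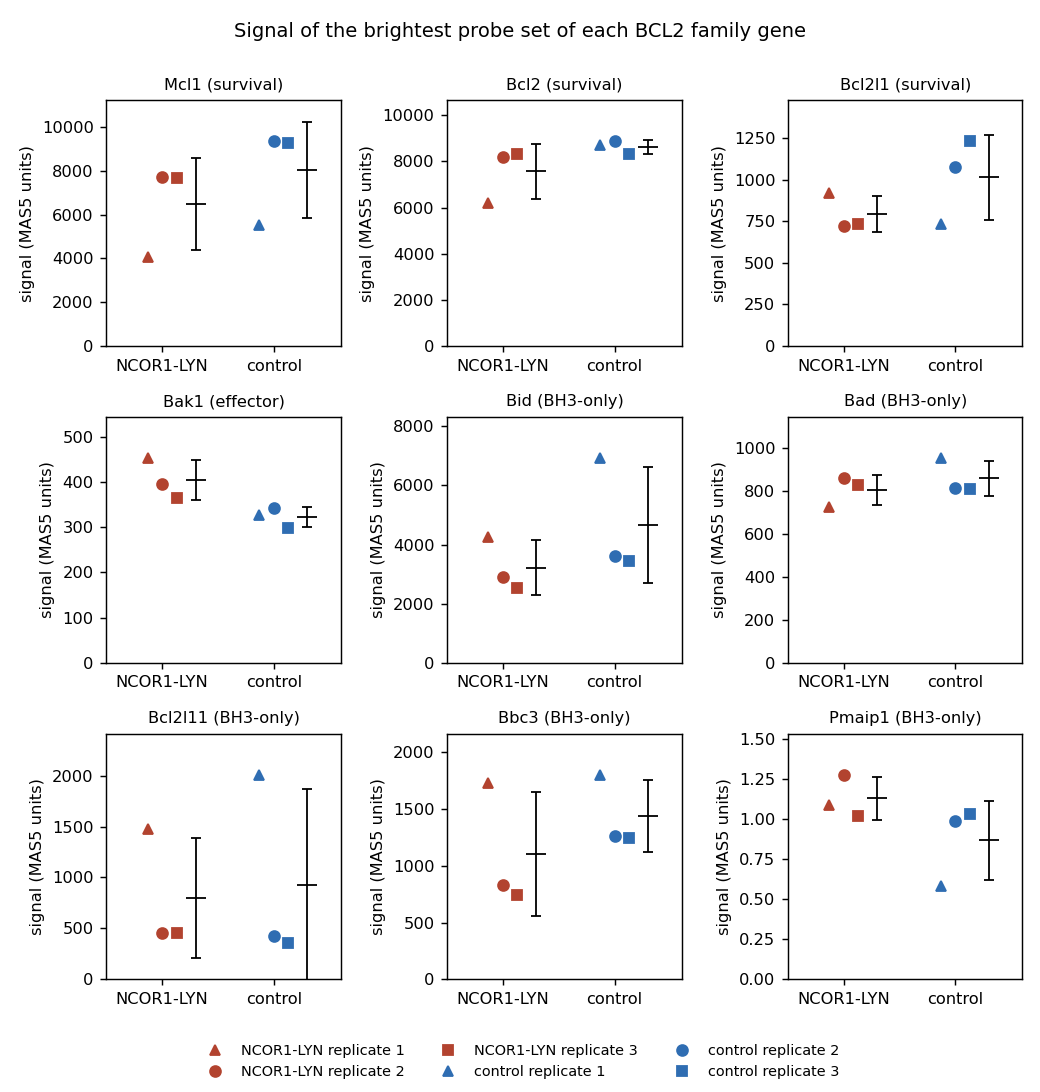
Signal (MAS5 units, linear axis from 0) of the brightest probe set of each of the 9 genes on all 6 arrays, NCOR1-LYN left of control. Black bars give the mean ± SD of 3 arrays and are cut at 0 for Bcl2l11. Triangles mark replicate 1, which lies lowest in both groups for Mcl1 and highest in both groups for Bid, Bcl2l11 and Bbc3.

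Mcl1, whose short-lived product restrains BAK and BIM, had lower signals with NCOR1-LYN in all 3 pairs on all of its 6 probe sets. Its brightest probe set gave 4058, 7718 and 7666 in NCOR1-LYN replicates 1, 2 and 3, against 5520, 9347 and 9256 in control replicates 1, 2 and 3. Both replicate 1 arrays were the lowest of their group there, so that the groups overlapped. The log2 fold change was −0.33 ± 0.31 (SE, n = 3) without and −0.33 ± 0.09 with the block (adjusted p in limma of 0.999 and 0.215), from pair changes of −0.44, −0.27 and −0.27. Leaving out 1 array at a time moved it between −0.58 (without control 1) and −0.02 (without NCOR1-LYN 1). On the other 5 probe sets the groups did not overlap. Probe set 1416881_at, for example, gave 1939, 2327 and 2303 with NCOR1-LYN, against 2886, 2759 and 2813 in controls, a log2 fold change of −0.36 ± 0.12. Across the 6 probe sets the log2 fold change ran from −0.39 to −0.26, and 3 of them carry the suffix that Affymetrix gives to probe sets with probes shared by other sequences. Averaging the 6 probe sets gave −0.33 (unadjusted p = 0.0284, adjusted p = 0.887 in limma). The 5 dimmer probe sets differed between replicate 1 and replicates 2 and 3 by −0.17 to 0.21 on the log2 scale, the brightest by −0.83.

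Bcl2, the survival gene first known from lymphomas, gave opposite signs on different probe sets. Its brightest gave 6203, 8187 and 8337 in NCOR1-LYN cells, against 8718, 8876 and 8302 in controls, a log2 fold change of −0.20 ± 0.14, with pair changes of −0.49, −0.12 and 0.01. The next 2 probe sets had −0.14 ± 0.20 and −0.24 ± 0.16, with pairs going both ways. Probe set 1440770_at gave 1131, 753 and 890 with NCOR1-LYN, against 830, 455 and 455 in controls, and 1443837_x_at gave 1024, 552 and 624, against 767, 400 and 426. These 2 lay higher with NCOR1-LYN in all 3 pairs, with log2 fold changes of 0.65 ± 0.25 and 0.43 ± 0.30, although the ranges of the groups overlapped because control 1 was high. In the fit of all probe sets they had an adjusted p of 1 without and of 0.248 and 0.351 with the block (limma). With the mean of all 5 probe sets in place of the brightest, Bcl2 had a log2 fold change of 0.10. Which part of the Bcl2 transcript each probe set reads was not analysed here.

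Bcl2l1 encodes BCL-XL and, by splicing, the shorter BCL-XS, which opposes it. Its brightest probe set gave 917, 724 and 733 in NCOR1-LYN cells, against 734, 1074 and 1231 in controls. NCOR1-LYN 1 thus lay above control 1, while NCOR1-LYN 2 and 3 lay below controls 2 and 3, with pair changes of 0.30, −0.53 and −0.70. All 4 probe sets had this pattern, the pair of replicate 1 between 0.21 and 0.47 and the other pairs between −0.79 and −0.21, though the dimmest stayed at signals of 1.76 to 52.9, near the floor. The log2 fold change over all arrays was −0.31 ± 0.21 (adjusted p = 0.999 in limma).

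Bak1, the measured effector, was the member with a positive log2 fold change. Its brighter probe set gave 453, 395 and 365 in NCOR1-LYN cells, against 327, 342 and 297 in controls, with no overlap and a log2 fold change of 0.28 ± 0.14 (adjusted p = 0.999 in limma, 0.462 with the block). The dimmer probe set gave 162, 162 and 197 with NCOR1-LYN, against 198, 177 and 181 in controls, a log2 fold change of −0.07 ± 0.17. Its pair changes of −0.21, −0.09 and 0.09 went both ways, so it did not share the direction of the brighter one.

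**Figure D2:**
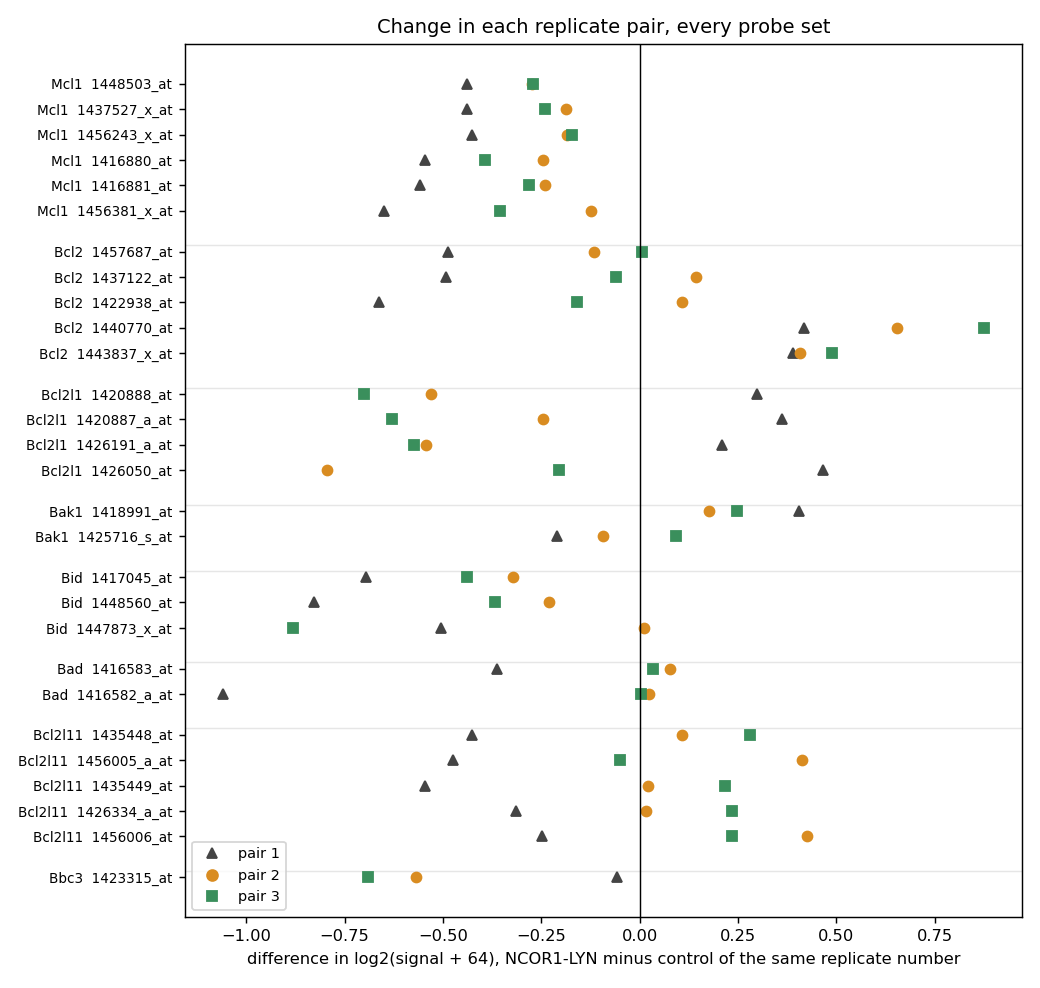
Difference in log2(signal + 64) between NCOR1-LYN and control of the same replicate number, for 28 probe sets of 8 genes (Pmaip1, at the floor, is left out), with the brightest probe set of a gene on top. All points of the 6 Mcl1 probe sets lie below 0, those of Bcl2l1 lie above 0 for pair 1 and below 0 for pairs 2 and 3, and the last 2 Bcl2 probe sets lie above 0 in all pairs.

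Among the BH3-only genes Bid, whose protein links death receptors to mitochondria once cut by caspase 8, gave 4259, 2887 and 2514 with NCOR1-LYN, against 6930, 3625 and 3431 in controls. It was lower in every pair, by −0.69, −0.32 and −0.44 on the log2 scale, while replicate 1 was the highest array of both groups. The log2 fold change was −0.49 ± 0.31 without and −0.49 ± 0.10 with the block (adjusted p of 0.999 and 0.117 in limma). With 1 array left out it lay between −0.70 (without NCOR1-LYN 1) and −0.16 (without control 1). Its other 2 probe sets had −0.47 ± 0.37 and −0.46 ± 0.22, the dimmest with pairs of −0.51, 0.01 and −0.88. Bbc3, which encodes PUMA, a p53 target that binds all survival proteins, has a single probe set. It gave 1731, 831 and 746 with NCOR1-LYN, against 1802, 1261 and 1243 in controls. The replicate 1 arrays were close to each other there, and NCOR1-LYN 2 and 3 lay below every control. The log2 fold change was −0.44 ± 0.31, and −0.44 ± 0.14 with the block (adjusted p of 0.999 and 0.309 in limma), and with 1 array left out it lay between −0.80 (without NCOR1-LYN 1) and −0.22 (without NCOR1-LYN 3).

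Bcl2l11, the gene of BIM, differed far more by replicate number than by group. Its brightest probe set gave 1480, 459 and 452 in NCOR1-LYN cells, against 2010, 421 and 360 in controls. Both replicate 1 arrays thus stood well above the other 4, which lay close together in both groups. The log2 fold change between groups was −0.01 ± 0.67, or ± 0.15 with the block, while replicate 1 lay 1.88 above replicates 2 and 3 on the log2 scale. All 5 probe sets were higher in replicate 1, by 0.59 to 1.88, and all 5 had a pair change below 0 for replicate 1 (−0.55 to −0.25). Bad, whose product is held inactive by phosphorylation when growth factors are present, gave 727, 860 and 828 with NCOR1-LYN, against 953, 812 and 808 in controls, a log2 fold change of −0.08 ± 0.14. Its second probe set gave 625, 766 and 715, against 1372, 752 and 713, so that control 1 alone stood apart. Pmaip1, the gene of NOXA, which antagonises MCL1, had signals of 1.09, 1.28 and 1.02 with NCOR1-LYN and 0.58, 0.99 and 1.03 in controls. Its single probe set was among the dimmest 0.0429% of the 34945 probe sets with 1 gene symbol, by mean log2 value, so no level or fold is given for it.

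Members differed by replicate number about as often as genes at large. In the mean of both groups replicate 1 was higher for Bcl2l11 (1.88 on the log2 scale), Bid (0.81) and Bbc3 (0.79), and lower for Mcl1 (−0.83) and Bcl2 (−0.19), while Bcl2l1 (−0.15), Bak1 (0.12) and Bad (0.01) did not pass the test. Of the 8 members 5 passed an adjusted p of 0.05 in this contrast, 3 higher (Bcl2l11, Bid and Bbc3) and 2 lower (Mcl1 and Bcl2), against 50.2% of all genes (28.0% higher and 22.1% lower). Bcl2 did not pass with quantile normalization, where Bcl2l1 did, nor without the intensity trend, where 4 members passed. Replicate 1 was singled out because it was known to lie apart, so this share is a description. The dimmer probe sets of Mcl1 did not share the difference of its brightest, as given above, and 2 dimmer Bcl2 probe sets lay higher in replicate 1, by 0.61 and 0.77.

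**Figure D3:**
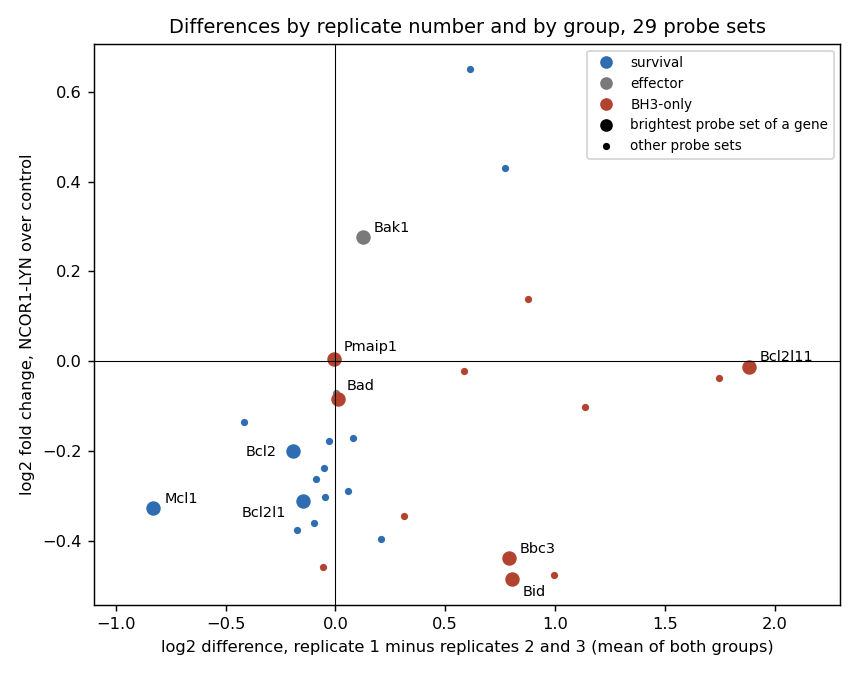
Each of the 29 probe sets by its log2 difference between replicate 1 and replicates 2 and 3 (horizontal, mean of both groups) and its log2 fold change between NCOR1-LYN and control (vertical). Bcl2l11 lies far right at a change near 0, Bid and Bbc3 lie right and below 0, and all Mcl1 probe sets lie below 0.

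Promoter letters are shown for Bcl2l11, Bid and Mcl1, which all differed by replicate number on their brightest probe sets. Mcl1 also lay lower with NCOR1-LYN on all its probe sets. RefSeq windows of the GRCm38.p6 assembly, from 250 bases before to 50 after an annotated start, were found for 9 of the 10 members, 15 windows in all. They were searched on both strands for TGTTTAC, the core letters bound by FOXO factors, for TTCNNNGAA of STAT factors, for the E-box CACGTG and for the GC box GGGGCGGGG. The FOXO letters were in 2 of the 15 windows, of Bcl2l11 and Bbc3, against 3.65% of all 32851 windows. The STAT letters were in 0 of the 15 (8.30% of all), the E-box in 2 (7.15% of all) and the GC box in 6 (11.4% of all). In the Bcl2l11 window TGTTTAC lies on the opposite strand, at positions −227 to −221 from the start, and in a Bbc3 window it lies at −167 to −161. A match is a description of letters and was not tied to any binding. The 250 bases before the start follow, read along the gene, with matches to any of the 4 motifs in capitals, for Bcl2l11 (chr2:128125788-128126037, plus strand), Bid (chr6:120916825-120917074, minus strand) and Mcl1 (chr3:95658471-95658720, plus strand, no match).
Bcl2l11: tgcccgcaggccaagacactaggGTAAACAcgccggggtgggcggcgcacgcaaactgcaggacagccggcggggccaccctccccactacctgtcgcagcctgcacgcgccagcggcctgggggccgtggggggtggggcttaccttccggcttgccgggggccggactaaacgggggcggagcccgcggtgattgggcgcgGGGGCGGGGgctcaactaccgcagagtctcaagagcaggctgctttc
Bid: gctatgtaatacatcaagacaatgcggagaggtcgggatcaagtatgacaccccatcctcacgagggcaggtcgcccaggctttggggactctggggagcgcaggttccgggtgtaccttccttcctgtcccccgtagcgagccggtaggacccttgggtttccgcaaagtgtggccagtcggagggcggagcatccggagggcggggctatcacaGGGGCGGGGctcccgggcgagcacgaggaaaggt
Mcl1: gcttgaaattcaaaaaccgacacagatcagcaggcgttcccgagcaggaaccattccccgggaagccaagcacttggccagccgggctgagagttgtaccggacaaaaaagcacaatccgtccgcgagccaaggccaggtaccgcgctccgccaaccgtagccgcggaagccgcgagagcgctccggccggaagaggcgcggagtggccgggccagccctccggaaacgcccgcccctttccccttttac

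Whether the change with NCOR1-LYN was the same in the pair of replicate 1 and in pairs 2 and 3 was tested as an interaction, with the spread taken from replicates 2 and 3. Of the 8 members 4 passed an adjusted p of 0.05 in limma, against 12.0% of all genes (5.22% with a positive and 6.82% with a negative difference). For Bcl2l1 the change of pair 1 exceeded that of pairs 2 and 3 by 0.91 ± 0.16 on the log2 scale (SE, adjusted p = 0.00808), and for Bbc3 by 0.57 ± 0.14 (adjusted p = 0.0305). For Bcl2 and Bcl2l11 it lay lower, by −0.43 ± 0.11 (adjusted p = 0.0323) and −0.62 ± 0.17 (adjusted p = 0.0484). Without the filter on dim genes 1 of the 4 passed, Bcl2l1, and without the intensity trend 0 did. With an offset of 16 or with quantile normalization 3 passed, all but Bcl2l11. In the fit of all probe sets no probe set of these 4 genes passed, Bcl2l1 coming nearest (adjusted p = 0.0762 in limma). The second probe set of Bad did pass there (−1.07 ± 0.13, adjusted p = 0.0498), where control 1 alone stood apart. The test rests on 1 pair against 2 pairs and was chosen with replicate 1 known to lie apart.

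With both replicate 1 arrays left out, 4 of the 8 members passed in limma and all 4 were lower with NCOR1-LYN, against 6.82% of all genes (3.64% lower). Bbc3 had a log2 fold change of −0.63 ± 0.08 (SE, n = 2, adjusted p = 0.00175), Bcl2l1 of −0.62 ± 0.09 (adjusted p = 0.00299), Bid of −0.38 ± 0.08 (adjusted p = 0.0175) and Mcl1 of −0.27 ± 0.06 (adjusted p = 0.0212). These 4 fell by less than 2-fold each and comprise 2 survival and 2 BH3-only genes. Bak1 (0.21 ± 0.12), Bcl2l11 (0.19 ± 0.11), Bad (0.05 ± 0.08) and Bcl2 (−0.05 ± 0.06) did not pass. In the fit of all probe sets without these arrays 2 of 29 passed, that of Bbc3 as lower (−0.63, adjusted p = 0.0353) and 1440770_at of Bcl2 as higher (0.77, adjusted p = 0.0457), against 0.996% of all probe sets (0.518% lower and 0.478% higher). This fit holds 2 arrays per group that correlate at 0.993 (NCOR1-LYN) and 0.994 (control) across genes, and its calls lean on how little those arrays differ.

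The other genes of apoptosis and its control, 80 tested of 106 listed, gave 0 calls without the block, 3 at an unadjusted p under 0.05 (4.75% of all genes were), and a median log2 fold change of −0.02. With the block 1 of the 80 passed and rose, where 0.824% of all genes passed in either direction. This was Pim2, whose kinase phosphorylates BAD and is a STAT5 target. It gave 1873, 7708 and 7278 with NCOR1-LYN, against 437, 1964 and 2143 in controls, a log2 fold change of 1.87 ± 0.10 with the block (adjusted p = 0.00151 in limma) and ± 0.71 without it (adjusted p = 0.952). Its product acts on the BAD protein, whose gene had the values given above. The list of kinases and adaptors that holds Pim2 (15 tested) had a median of 0.04, and that of genes for the turnover of members (9 tested, 0 passed with or without the block) a median of −0.13. In the turnover list Fbxw7, a subunit of a ubiquitin ligase that marks MCL1 for degradation, gave 980, 769 and 949, against 1192, 1447 and 1343 in controls, with no overlap and a log2 fold change of −0.53 ± 0.15 (adjusted p = 0.606 in limma). Without both replicate 1 arrays Fbxw7 fell, with −0.67 (adjusted p = 0.00394 in limma).

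In the list of other BCL2 family genes 9 of 19 were tested and 0 passed, with a median of −0.12. Bnip3, an atypical BH3 protein induced by hypoxia, had 629, 5517 and 5125 with NCOR1-LYN, against 1147, 6149 and 6316 in controls. Its log2 fold change was −0.42 ± 0.94, it was low in replicate 1 of both groups, and with 1 array left out the value ran from −1.21 (without control 1) to 0.57 (without NCOR1-LYN 1). The list named for cytochrome c and the caspases (9 tested, 0 passed, median −0.19) also holds other genes. In it 5 genes were lower in all pairs, Apaf1, Casp8, Dffa, Dffb and Parp1 (18.9% of all genes were). Cycs, the cytochrome c gene, was the 1 higher in all pairs (15.9% of all genes were). Casp9, Casp6 and Casp2 had pairs going both ways. Casp6, an executioner caspase gene, had −0.32 ± 0.28, or 0.02 without NCOR1-LYN 1. The other mitochondrial death factors (10 tested, 0 passed, median 0.06) included Vdac1, a channel of the outer membrane, at 0.19 ± 0.13. The inhibitors of apoptosis proteins (7 tested, 0 passed, median −0.09) included Birc3, an NF-kB target, at −0.28 ± 0.13. All 6 tested genes of the death receptor pathway had negative log2 fold changes and 0 passed (median −0.16). Of these the receptor gene Fas gave 191, 141 and 117 with NCOR1-LYN, against 456, 166 and 158 in controls, with a log2 fold change of −0.49 ± 0.34, and control 1 was its highest array. Among 15 transcription factor genes known to act on the family (0 passed, median 0.05) Jun had 0.81 ± 0.35, with pair changes of 1.29, 0.71 and 0.44. Of these 15 genes 6 were higher in all pairs (15.9% of all genes were) and 1 was lower (18.9% of all genes were).

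**Figure D4:**
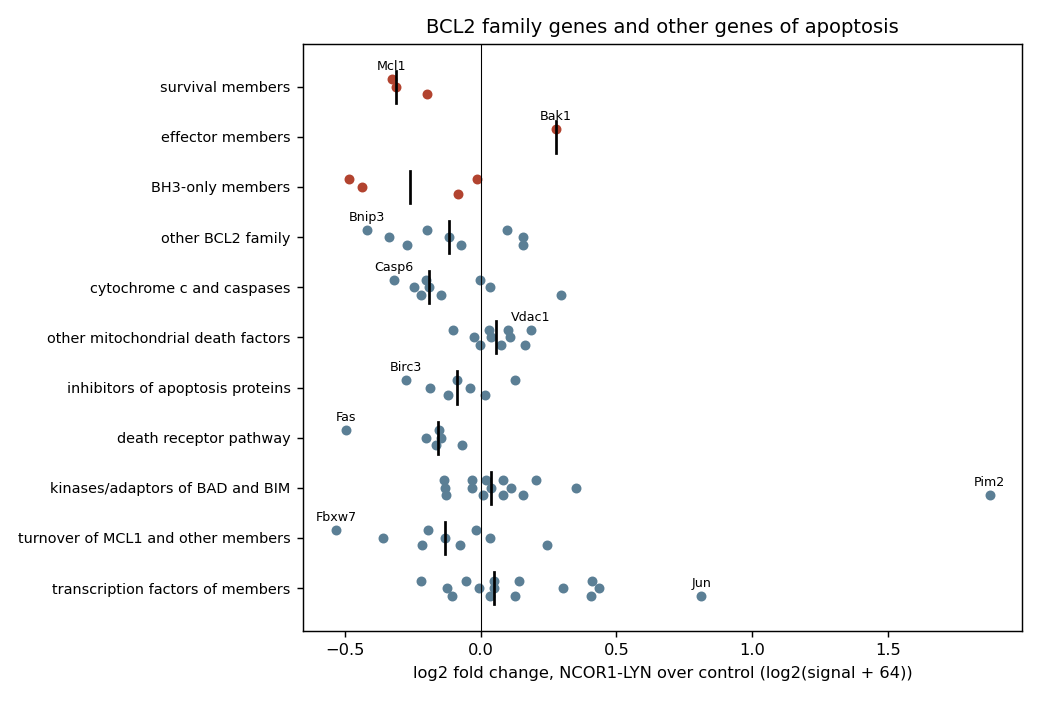
Log2 fold change between NCOR1-LYN and control of every tested gene in the 3 groups of members (red) and 8 other lists (blue), 1 point per gene by its brightest probe set, with vertical bars at list medians and the genes named by rule labelled. Pim2 (1.87) lies far to the right of the others.

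For likeness across the 6 arrays, the tested gene with the highest Pearson correlation of log2 values was Fam102b for Bcl2l11 (r = 0.999), Nat14 for Bid (0.998), Clec4d for Bbc3 (0.998), Samhd1 for Mcl1 (0.996), Cd82 for Bcl2l1 (0.994), Nudt14 for Bcl2 (0.994), Mbnl1 for Bad (0.993) and 6330407A03Rik for Bak1 (0.986). Each is the highest value among all genes tested, over 6 arrays that share the split by replicate number, so values this high are a description of these arrays. Clec4d, which encodes a myeloid lectin receptor, gave 3883, 1192 and 944 with NCOR1-LYN, against 4364, 2516 and 2314 in controls, the same order of arrays as Bbc3. The matches of Bcl2l1, Bak1, Bid, Bad and Bcl2l11 shared the order of their member as well (Spearman rho of 1).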

How the data were processed

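RNA of 6 Ba/F3 cultures was measured on Affymetrix mouse arrays, 1 per sample. The deposited table holds linear probe set intensities that the authors made with MAS5, per the submitters' processing notes; the version and any genome build are not given in the sources used here. With 2% of values trimmed from either end, every array averages 500 in the deposited table. Signals were used as log2(signal + 64), which understates the change of dim genes.

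The platform annotation names 1 gene symbol for 34945 of the 45101 probe sets, several for 932 and none for 9160, and 64 are controls. Updating symbols through Entrez identifiers changed 0. Each gene was represented by its brightest probe set, and 10916 of 18193 genes passed a filter at the 40th percentile of the mean log2 value, near a signal of 46.96. These were fitted with limma 3.58.1 in R 4.3.3 (lmFit and eBayes with an intensity trend, no covariate, 4 residual degrees of freedom, Benjamini-Hochberg over all of them, adjusted p under 0.05, two-sided). A second fit took all 34945 probe sets without a filter. The blocked fit (replicate number as block) and the fit of replicate 1 against replicates 2 and 3 each had 2 residual degrees of freedom. The fits were tested on simulated data. For the fit without a block these data held no differences by replicate number, which the real arrays had, so that case was not covered. Promoter windows came from RefSeq (GRCm38.p6), and protein sequences were not used here.

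Arrays of the same replicate number deviated together from their group means across genes (r of 0.62, 0.41 and 0.44 for replicates 1, 2 and 3, all above 0.1), which was taken as pairing. No label names a shared day, and replicates 2 and 3 were not told apart by this check (0.39 and 0.48 with the numbers exchanged). All members were named with all their probe sets. In other lists the genes that passed with or without the block were named, at most 4 a list, and where 0 passed, the gene that changed most by size. Alternatives covered the block, the offset, the filter, the scaling, the probe set rule, the intensity trend, array weights and arrays left out. The members and lists were chosen with earlier results of these data known, and so was the split of replicate 1 from replicates 2 and 3.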

Additional observations from a re-analysis of the deposited data

How the results depend on the processing

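Of 127 values of the 8 tested members under the alternatives, 119 kept the sign reported and 8 turned it, all 8 for genes that did not pass (Bcl2l11, Bad and Bcl2), and 6 passed the threshold. The block, the filter and the intensity trend leave the log2 fold change of a gene as it is. Values under them could not turn sign, for members and other named genes alike, so the count of kept signs is no measure of stability. Array weights gave 2 members past it (Bcl2l1 and Bbc3) and leaving out both replicate 1 arrays gave 4. The other apoptosis lists, 80 genes tested with 0 calls as reported, gave 1 with the replicate block (Pim2, where 0.824% of all genes passed). They gave 4 when arrays were weighted (Fbxw7, Myc, Pim2 and Stat3, where 4.60% of all genes passed). With both replicate 1 arrays left out they gave 6, the same 4 with Ddit3 and Jun (6.82% of all genes passed). Over all genes 9 passed as reported, 90 with the replicate block, 1 without the filter on dim genes, 1 with it at the 60th percentile, 502 with array weights, 744 without both replicate 1 arrays and 0 to 15 with 1 array left out at a time (0 without any of NCOR1-LYN 2, NCOR1-LYN 3, control 2 or control 3, 12 without NCOR1-LYN 1 and 15 without control 1). Among the members 0 passed with any 1 array left out, and their log2 fold changes then ran from −0.27 to −0.06 for Bcl2, −0.51 to −0.16 for Bcl2l1, 0.20 to 0.34 for Bak1, −0.13 to −0.01 for Bad and −0.54 to 0.72 for Bcl2l11. Of 126 values of the 8 other named genes 2 turned sign (Bnip3 and Casp6, without NCOR1-LYN 1) and 6 passed. The replicate block changed the call of 0 members, at the level of genes and of probe sets. For NCOR1-LYN against control in the fit of all probe sets, 2 of the members' probe sets passed without both replicate 1 arrays, and 0 under the others. That alternative was added after seeing the data. The 4 differences of the replicate 1 pair became 1 without the filter and 0 without the intensity trend. The cause of the shifts in these counts was not tested. With 3 arrays a group, and 2 without replicate 1, the number of arrays limits the precision, and the Pmaip1 probe set gave no usable signal. The search for BH3 letters in the members' proteins was not run.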
